A study of Mus musculus with 5 samples.

Results

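Each autosome of female hybrid mouse cells comes in a maternal and a paternal copy from different strains, and reads that cover a strain difference can be counted for each copy. The dosage of both copies was compared between the input DNA of wild-type (WT) and SIRT7-knockout (KO) cells. The regions were the 1 Mb bins of chromosomes 1 to 19 that held at least 100 reads in both inputs. They numbered 2414 of the 2473 autosomal bins and of the 2738 bins in the whole table. Of the 59 autosomal bins left out, 56 held 0 reads in both inputs.

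The study profiled SIRT7 by chromatin immunoprecipitation with sequencing (ChIP-seq) in female TTF cells of a C57BL6/CAST hybrid strain; the labels do not spell out TTF. There was 1 input per genotype, together with 2 WT ChIP libraries and 1 KO ChIP library made with the same antibody. All cells were of this hybrid strain, and the groups differed by the label WT or SIRT7-KO. The labels give neither the knockout allele, nor the direction of the cross, nor whether the cells of either genotype were 1 clone or a mixed culture. The deposited reads are split into genome1 and genome2, and no label says which of these is C57BL6.

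SIRT7 is an NAD+-dependent deacylase of the sirtuin family, found largely in the nucleolus and linked to rDNA transcription, chromatin state and DNA repair. Input DNA is sheared chromatin taken before the antibody step, so its reads in a region scale with the number of copies of that region in the cells. In F1 hybrid mice the parental strains differ at many bases, so gain or loss of a single parental copy can be seen even where the sum of both copies hardly changes. Mouse cells kept in culture often gain or lose whole chromosomes.

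With 1 input library per genotype there is no replicate of the comparison, so no p-value is given and all intervals cover counting error only. The inputs held 207303976 (WT) and 204575216 (KO) autosomal reads, with medians of 76307 and 78950 reads per bin. Genome1 or genome2 could be assigned to 51.3% of autosomal reads in WT input and 50.9% in KO input. Genome1 took 51.2% and 51.02% of these allelic reads over all autosomes. At this depth the widest 95% interval of an autosome's genome1 or genome2 ratio spanned 0.518% of its value. An input describes a population: fewer cells with a given copy and fewer copies in every cell cannot be told apart, nor can the genotype be told apart from the history of each culture.

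All-read dosage of whole autosomes differed less between genotypes than the dosage of the parental copies. All reads sum both copies, so a change in 1 copy moves them less than that copy. Each value below is a ratio of KO to WT input, after each library was divided by its own autosomal total. Over all reads the 19 autosomes lay between 0.841 (chromosome 19) and 1.14 (chromosome 12), and 0 of 19 passed the fold used throughout, which is KO at least 25% higher or at least 20% lower than WT. Over genome1 reads the range was 0.515 (chromosome 7) to 1.66 (chromosome 1), with 5 autosomes higher in KO past the fold and 5 lower. Over genome2 reads it was 0.548 (chromosome 3) to 1.64 (chromosome 7), with 6 higher and 4 lower.

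Bin by bin the same contrast was seen. For all reads, 3 of 2414 bins were higher (0.124%) and 4 were lower (0.166%). For genome1, 724 of 2412 bins were higher (30.0%) and 518 were lower (21.5%). For genome2, 652 of 2413 bins were higher (27.0%) and 582 were lower (24.1%). About 1 autosomal bin in 2 thus passed the fold for genome1, and as many for genome2, but almost none for all reads.

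**Figure D1:**
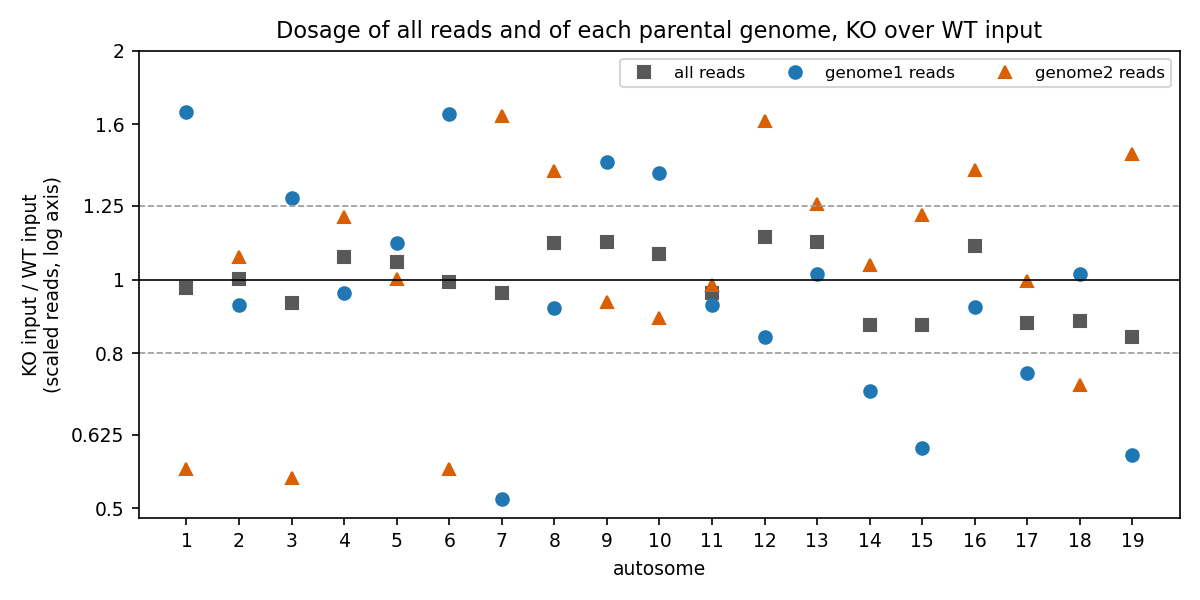
Ratio of KO to WT input (log axis) for each of the 19 autosomes, for all reads (squares), genome1 reads (circles) and genome2 reads (triangles); dashed lines mark KO 25% higher and 20% lower than WT. The squares stay between 0.841 and 1.14, while circles and triangles spread from 0.515 to 1.66 and often lie on opposite sides of 1.

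On 5 autosomes the copies moved in opposite directions past the fold. Together these chromosomes hold 6048 protein-coding genes, 29.3% of the autosomal total of 20665. On chromosome 1, genome1 had 12735 CPM (reads scaled to the autosomal total of the library) in WT input. KO input had 21125 CPM, a ratio of 1.66. Genome2 went the other way there, from 23077 to 12993, a ratio of 0.563. Their opposite moves left chromosome 1 at 0.976 over all reads.

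Chromosomes 6 and 3 followed chromosome 1 in direction. Genome1 of chromosome 6 rose from 9669 to 15943 CPM (1.65-fold) and genome2 fell from 16080 to 9059 (0.563). On chromosome 3 genome1 rose from 18534 to 23716 (1.28-fold) and genome2 fell from 18316 to 10046 (0.548). The all-read ratios were 0.993 for chromosome 6 and 0.932 for chromosome 3.

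Chromosomes 7 and 19 had the mirror image. Genome1 of chromosome 7 went from 13461 to 6932 CPM (0.515) and genome2 from 9579 to 15718 (1.64), with 0.960 over all reads. On chromosome 19 genome1 went from 11600 to 6824 (0.588) and genome2 from 4676 to 6849 (1.46). Chromosome 19 was also the lowest autosome over all reads, at 0.841.

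On 10 autosomes 1 copy passed the fold and the other did not; these hold 8629 protein-coding genes (41.8%). Genome1 alone was higher in KO on chromosomes 9 (1.43) and 10 (1.38), where genome2 stood at 0.933 and 0.890. It was lower in KO on chromosomes 14 (0.714), 15 (0.601) and 17 (0.753), with genome2 at 1.05, 1.22 and 0.995. Chromosome 15 had the largest of these falls, from 21502 to 12923 CPM of genome1.

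Genome2 alone was higher in KO on chromosomes 8 (1.39), 12 (1.62), 13 (1.26) and 16 (1.39), where genome1 stood at 0.917, 0.839, 1.02 and 0.921. Chromosome 12, with 8514 CPM of genome2 in WT and 13756 in KO, was the highest of them. Genome2 was lower alone on chromosome 18 (0.726), with genome1 at 1.02. Over all reads these 10 autosomes ranged from 0.870 to 1.14. Chromosome 13 lay close to the fold, and the chromosomes nearest to it on the other side were 15 (1.22) and 4 (1.21).

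Chromosomes 2, 4, 5 and 11 passed the fold in neither copy and hold the other 5988 genes (29.0%). Genome1 stood at 0.925, 0.960, 1.12 and 0.926 and genome2 at 1.07, 1.21, 1.00 and 0.984. No autosome had both copies past the fold in the same direction (0 of 19). The copies lay on opposite sides of 1 on most autosomes, chromosome 4 among them.

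Reads that could not be assigned to a parent gave a measure that the allelic split did not enter. Their KO over WT ratio, divided by that of the allelic reads of the same autosome, lay between 0.966 and 1.07. The largest value was on chromosome 14 and the smallest on chromosome 7. Unassigned reads thus stayed near the sum of both copies on all 19 autosomes.

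The genome1 share of allelic reads shows the same shifts without any scaling between libraries. The outermost shifts, KO minus WT, were 26.4 percentage points on chromosome 1 (35.6% to 61.9%) and -27.8 points on chromosome 7 (58.4% to 30.6%). The median size of the shift was 10.3 points, and 16 of 19 autosomes shifted by over 5 points; the exceptions were chromosomes 2, 5 and 11. Shares near balance, between 45% and 55%, were found on 6 autosomes in WT input and on 10 in KO input.

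The ChIP libraries, which were not used to choose the regions, gave shares near those of the input of their genotype, closely so in WT and less so in KO. In WT ChIP the genome1 share of an autosome differed from that of WT input by -0.206 to 0.271 points in replicate 1 and by -0.225 to 0.243 in replicate 2. KO ChIP, with only 4647230 autosomal reads, differed from KO input by -2.11 to 1.91 points, with a median size of 0.922. Its share was displaced to the WT side of KO input on 18 of 19 autosomes, chromosome 2 being the exception. The 95% counting intervals of KO ChIP and KO input overlapped on chromosome 11 only. On chromosome 1 they were 60.2% to 60.7% in KO ChIP and 61.88% to 61.95% in KO input. What displaced these shares was not tested. Shifts between genotypes on most autosomes were thus several times wider than the gap between ChIP and input of 1 genotype. The labels do not say whether these libraries came from separate cultures, so that gap may be technical and does not measure variation between cultures.

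**Figure D2:**
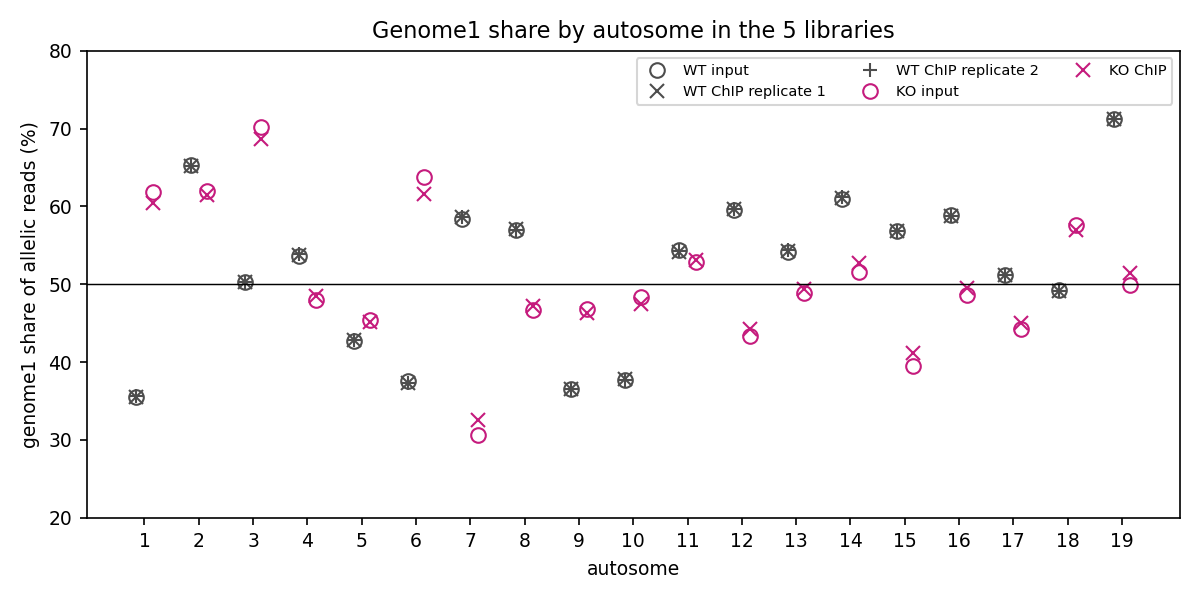
Genome1 share of allelic reads (%) on each autosome in all 5 libraries, WT in grey and KO in magenta, with inputs as circles and ChIP as crosses. The 3 WT libraries overlap to within 0.271 points of the input, while WT and KO lie 26.4 points apart on chromosome 1 and 27.8 on chromosome 7.

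The ratio of KO ChIP to the mean of the WT ChIP libraries was on the same side of 1 as the input ratio on 19 of 19 autosomes for all reads. For genome1 it was on the same side on 17, with chromosomes 13 and 18 as exceptions, and for genome2 on 17, with 5 and 14 as exceptions. Of the 5 autosomes with genome1 higher in KO input, 4 also passed the fold in ChIP; chromosome 3 did not (1.19). All 5 with genome1 lower passed it, as did 5 of 6 with genome2 higher and 4 of 4 with genome2 lower. Chromosome 13 was the genome2 exception, at 1.19. Genome1 of chromosome 12 passed the lower side of the fold in ChIP (0.797) but not in input (0.839). Allelic reads were 49.8% of autosomal reads in KO ChIP, against 53.6% and 52.0% in the WT ChIP libraries. Scaling by all-read totals therefore lowers the KO over WT ChIP ratios of both copies, and makes the lower side of the fold easier to pass. Every exception named here had to be lower in ChIP than in input to be one, so their common direction was fixed by how they were picked. They are not read as copies whose dosage differs between ChIP and input. What moved them, this offset or the displaced KO ChIP shares, was not tested.

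As a measure of spread, WT ChIP replicate 2 was divided by replicate 1 in the same way. Per autosome this gave 0.965 to 0.973 for genome1 and 0.964 to 0.973 for genome2. For all reads it gave 0.989 to 1.04. Allelic reads were 53.6% of autosomal reads in replicate 1 and 52.0% in replicate 2. Scaling by all-read totals leaves this difference in the ratios of both copies. Whether the 2 libraries came from separate cultures is not given by the labels, so this spread may be technical.

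Within each input, a copy level was computed to describe the dosage of each copy in its own library. It is the chromosome's median read number per bin over the median of all autosomal bins, times 2, times the share of that parental genome; a value of 1 is the typical copy of that library. Levels of different chromosomes were not corrected for mappability or base composition, whose part was not tested. They also rest on the share, which could vary within a chromosome of 1 library. In WT input the genome1 share was 29.6% and 31.7% in inner stretches of chromosome 12, against 61.4% to 63.3% in its other pieces. The part of read assignment in the levels was not tested either. In WT input genome1 levels ran from 0.652 (chromosome 6) to 2.09 (chromosome 15), and genome2 levels from 0.716 (chromosome 7) to 1.95 (chromosome 10). In KO input they ran from 0.484 (chromosome 7) to 1.58 (chromosome 10) and from 0.596 (chromosome 6) to 1.85 (chromosome 15).

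Chromosomes 15 and 10 were the most abundant autosomes of both genotypes. Over all reads, in WT and KO input, chromosome 15 stood at 1.84 and 1.53 times the typical bin and chromosome 10 at 1.57 and 1.63. On chromosome 15 genome1 went from a level of 2.09 in WT to 1.21 in KO, while genome2 went from 1.59 to 1.85. On chromosome 10 genome1 went from 1.18 to 1.58 and genome2 from 1.95 to 1.68. The more abundant copy of chromosome 15 was thus genome1 in WT and genome2 in KO.

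By these levels chromosomes 1 and 6 also exchanged their more abundant copy. Chromosome 1 had levels of 0.667 (genome1) and 1.21 (genome2) in WT, against 1.08 and 0.666 in KO. Chromosome 6 had 0.652 and 1.08 in WT, against 1.05 and 0.596 in KO. On chromosome 7 the exchange ran the other way, from 1.01 and 0.716 in WT to 0.484 and 1.097 in KO. The low copy of one genotype had nearly the level of the low copy of the other on chromosomes 1 and 6, but not on chromosome 7.

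By the same measure chromosome 19 was uneven in WT input only. Its genome1 level was 1.98 and its genome2 level 0.796 in WT, against 1.11 and 1.12 in KO. Chromosomes 9 and 12 were likewise closer to balance in KO: 0.673 and 1.17 became 0.916 and 1.04 on chromosome 9, and 1.11 and 0.756 became 0.874 and 1.14 on chromosome 12. Chromosomes 3 and 18 were the reverse, at 1.20 and 1.18 in WT and 1.48 and 0.629 in KO for chromosome 3, and at 1.05 and 1.08 in WT and 1.02 and 0.749 in KO for chromosome 18.

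**Figure D3:**
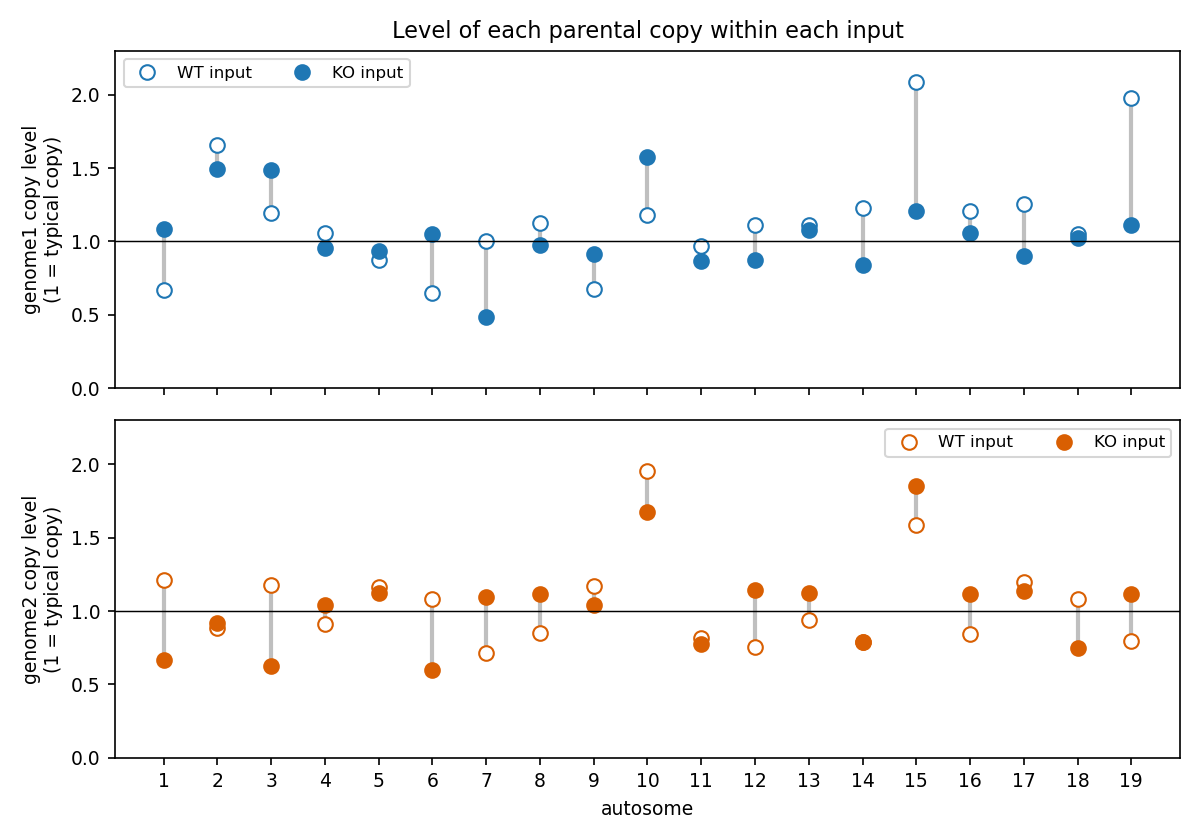
Copy level of genome1 (upper panel) and genome2 (lower panel) on each autosome in WT and KO input, joined by a grey line; 1 is the typical copy of that library. Genome1 of chromosomes 15 and 19 stands near 2 in WT input only, and genome1 of chromosome 7 is the lowest point of KO input, at 0.484.

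Differences ran along whole chromosomes. In fixed windows of 10 Mb, 0 of 250 passed the fold for all reads in either direction (0.00% higher and 0.00% lower). For genome1, 30.8% of windows were higher and 22.0% lower; for genome2, 26.0% were higher and 24.0% lower. All 132 windows on the 10 autosomes past the fold for genome1 passed it in their chromosome's direction, and 0 of the 118 windows elsewhere passed. For genome2, 123 of 128 windows passed and all 128 lay on the chromosome's side of 1; the 5 that missed were on chromosome 13, where 7 of 12 passed. Elsewhere 2 of 122 genome2 windows passed, 1 each on chromosomes 4 and 15.

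Within an autosome the highest window was typically 1.04 times the lowest for genome1 (median over 19 autosomes), 1.12 times for genome2 and 1.03 times for all reads. On chromosome 1 genome1 windows lay between 1.61 and 1.68, and on chromosome 7 between 0.509 and 0.521. The widest genome1 range, 1.13, was on chromosome 9.

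Genome2 windows varied more, and most on chromosome 1, where they ran from 0.504 to 0.652 (highest over lowest 1.29). The genome2 ratio there was nearer 1 where genome1 had a smaller share in WT input. In the 3 windows starting at 140000001, 150000001 and 170000001 the share was 27.8% to 28.4% and the ratio 0.631 to 0.652. In the 4 windows with the highest shares, at 40000001, 50000001, 180000001 and 190000001, these were 40.0% to 40.2% and the ratios 0.504 to 0.521. The part of read assignment in this variation was not tested.

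**Figure D4:**
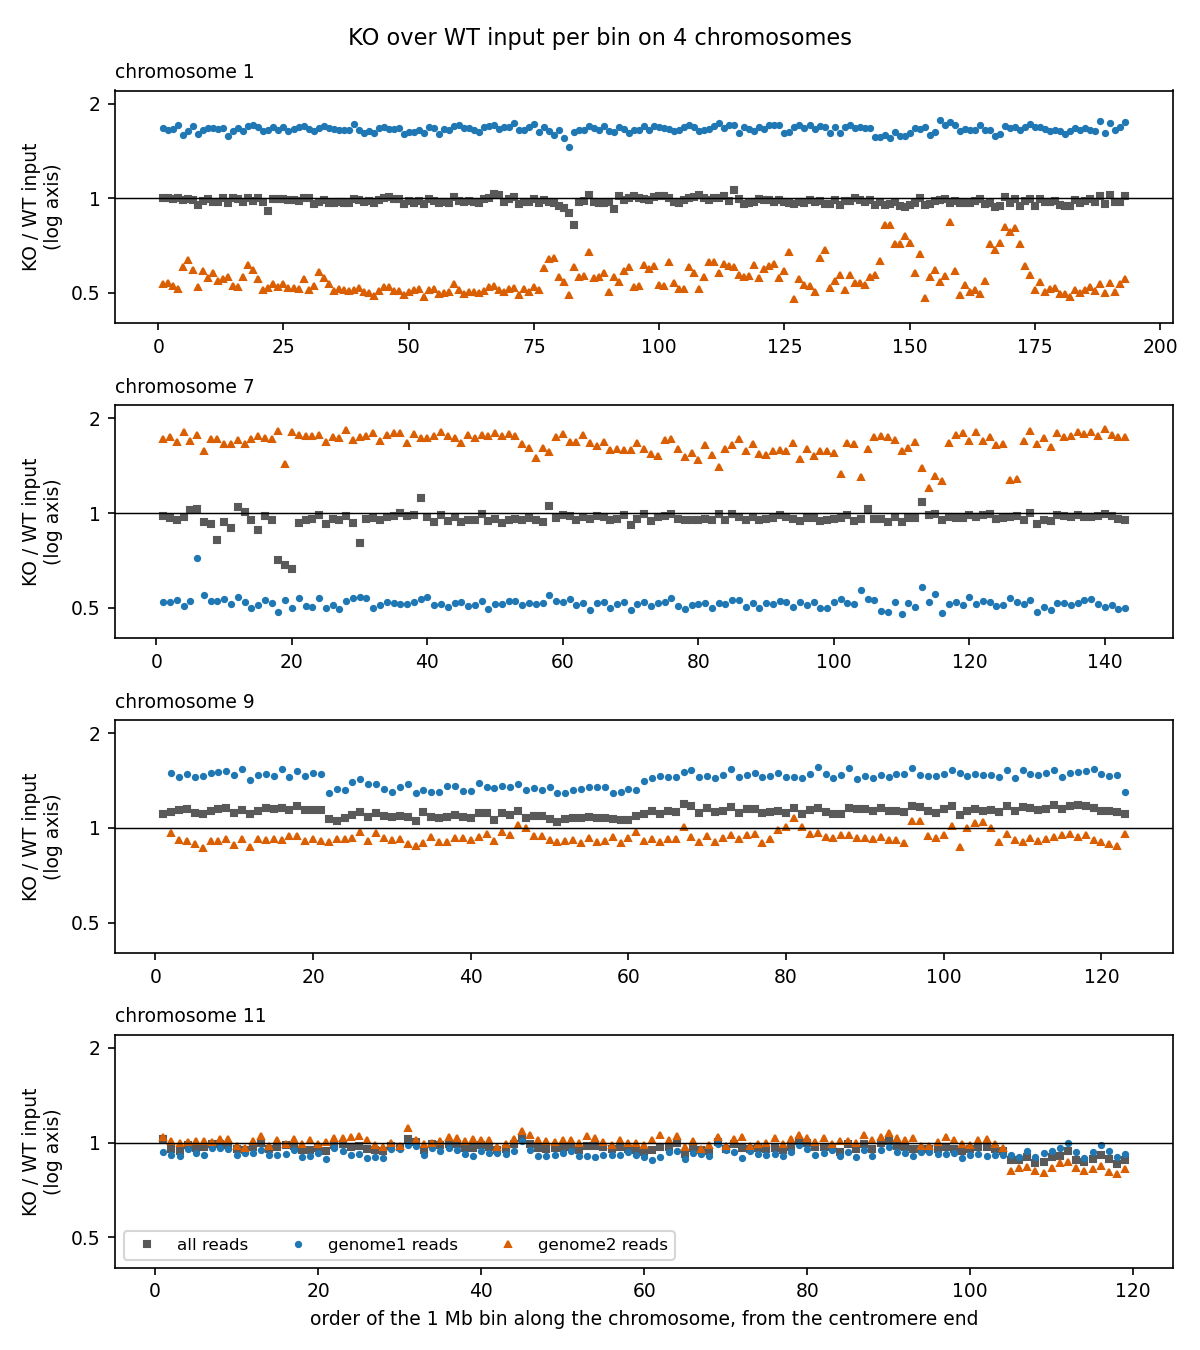
KO over WT input ratio (log axis) of all reads (squares), genome1 reads (circles) and genome2 reads (triangles) in bins of 1 Mb, in their order along chromosomes 1, 7, 9 and 11. On chromosomes 1 and 7 the parental copies stay on opposite sides of 1 from end to end with genome2 more uneven than genome1, genome1 of chromosome 9 dips to 1.33 in an inner stretch, and genome2 of chromosome 11 steps down to 0.825 near the distal end.

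Only chromosome 11 was divided by a search for single steps of at least 0.2 on the log2 scale with at least 5 bins on either side. The other 18 autosomes stayed in 1 piece. The step lay at 107000001 (mm10). Proximal to it, from 3000001 to 107000000 (104 bins), genome1 stood at 0.926 and genome2 at 1.01. Distal to it, from 107000001 to 122000000 (15 bins), genome1 was 0.930 and genome2 0.825, and all reads went from 0.970 to 0.886.

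The step was sharp and belonged to genome2. In the 10 bins before it the genome2 ratio was 0.961 to 1.04, and in the 15 bins after it 0.794 to 0.866, with no overlap. The genome1 share stepped down in WT input, from 54.9% to 50.99%, and up in KO input, from 52.7% to 54.0%. WT ChIP had 54.8% and 51.03% in replicate 1, and 54.8% and 51.1% in replicate 2; KO ChIP had 53.0% and 53.8%. In level, the distal piece was higher than the rest in WT input (0.921 against 0.892) and lower in KO input (0.776 against 0.826). The KO over WT ChIP ratio of genome2 went from 0.963 to 0.807 across it.

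This distal piece holds 237 protein-coding genes, Sirt7 among them. The bin of Sirt7 (chromosome 11, 120000001 to 121000000) stood at 0.856 for all reads, 0.902 for genome1 and 0.794 for genome2, and genome2 of its neighbours at 0.808 and 0.826. Bins of 1 Mb cannot show whether the gene itself is deleted.

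A finer search, with steps of at least 0.1, also divided chromosomes 3, 6 and 9, for 5 steps in all. Genome2 on chromosome 3 went from 0.594 to 0.523 at 57000001, and on chromosome 6 from 0.535 to 0.622 at 103000001. All reads hardly changed there, from 0.940 to 0.928 on chromosome 3 and from 0.995 to 0.988 on chromosome 6. The genome1 share in WT input went from 46.0% to 52.4% and from 40.1% to 31.6%. The part of read assignment in these 2 steps was not tested. On chromosome 9 the middle piece, from 23000001 to 64000000 (41 bins), had a genome1 ratio of 1.33, against 1.48 on both sides, and an all-read ratio of 1.09 against 1.13 and 1.14. ChIP had this dip in genome1 too, with 1.247 in the middle against 1.37 and 1.38.

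Chromosome 2 carried an inner interval that the search for single steps in the KO over WT ratios did not divide. It was found by searches for intervals added after the values had been seen. In those ratios the search placed it from 72000001 to 133000000 (61 bins). The bounds used below come from the all-read level within each input. By that level it ran from 64000001 to 134000000 in WT input (70 bins, 790 protein-coding genes), and began 1 bin later in KO input. Both inputs had it. The all-read level was 1.37, 0.909 and 1.29 before, in and after it in WT input, and 1.30, 0.790 and 1.24 in KO input. WT ChIP replicate 1 had 1.34, 0.883 and 1.41, replicate 2 had 1.35, 0.887 and 1.39, and KO ChIP had 1.28, 0.803 and 1.33. A search for level steps of at least 0.3 (log2) divided chromosome 2 in both inputs. In KO input it also divided chromosome 12, at 18000001 to 25000000 (7 bins). That stretch was low in both genotypes, with levels of 0.938, 0.717 and 0.936 before, in and after it in WT and 1.03, 0.782 and 1.01 in KO, although the search did not divide WT input there.

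Genome2 reads were scarce in this interval in either genotype. The median bin had 23501, 2685.5 and 21776 genome2 reads before, in and after it in WT input, and 24630, 2451 and 23744 in KO input. Genome1 had 33260, 28946 and 34145 in WT input. The genome1 share inside was 85.3% in both inputs, against 56.8% and 59.0% outside in WT and 53.1% and 54.9% outside in KO. Of 2413 bins, 24 in each input had a genome1 share of at least 95%, and all of these lay in the interval.

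The share was not even along it. From 65000001 to 75000000 it was 99.2% and 99.5% by 5 Mb pieces in WT input, and from 120000001 to 125000000 it was 46.0%. Among spindle checkpoint genes, which hold back anaphase until chromosomes are attached, Bub1 lay in a bin with 89.7% genome1 in WT and 89.8% in KO. Bub1b lay in one with 20.0% and 20.4%, and Knl1 in one with 16.8% and 17.3%.

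Inside the interval the scaled reads of both genomes were a little lower in KO than in WT. The median bin ratio was 0.910 for genome1 and 0.909 for genome2, whereas outside it genome2 was higher in KO (1.09 and 1.105) and genome1 lower (0.917 and 0.929). Genome1 was below 1 in 70 of 70 bins and genome2 in 58 of 70. For all reads the median bin stood at 0.919, with 69 of 70 bins below 1. The summed all-read ratio was 1.01 because 1 bin, from 98000001 to 99000000, held 4128732 reads in WT and 4537573 in KO input. In the 5 Mb pieces at 65000001 and 70000001 the median bin had only 293 and 128 genome2 reads in WT input. Their genome2 ratios had intervals of 0.903 to 1.04 and 0.957 to 1.14, which include 1. With so few genome2 reads, the dosage of a genome2 copy cannot be read there.

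**Figure D5:**
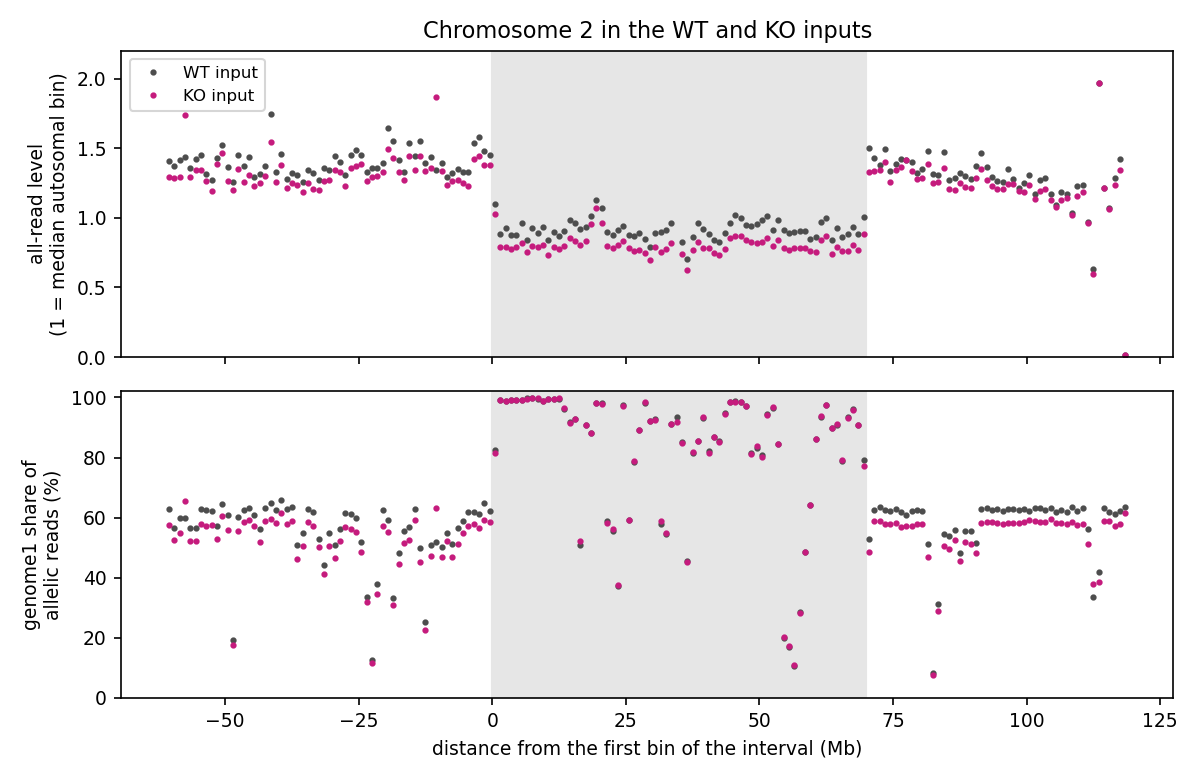
All-read level and genome1 share along chromosome 2 in bins of 1 Mb, in order, for WT and KO input; 1 bin of each input lies above the axis top of 2.2. Both inputs drop to levels of 0.909 and 0.790 in the same inner stretch, where the share rises to 85.3%.

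Single bins that left the level of their own segment were few. The departure of a bin's log2 all-read ratio from its segment's median had a 5th percentile of -0.064 and a 95th percentile of 0.056, and 6 of 2412 bins departed by over 0.3. The highest was on chromosome 2 from 53000001 to 54000000, the bin of Fmnl2, a formin that builds actin filaments. It had 102451 reads in WT and 147453 in KO input, a ratio of 1.46. The rise lay in genome1, from 28210 to 50446 reads (1.81, against 0.925 for the chromosome), while genome2 had 1.14. KO over WT ChIP gave 1.69 for genome1 in this bin, and the bins on either side had input ratios of 0.920 and 0.926.

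Next came the chromosome 2 bin of Upf2, a factor of nonsense-mediated decay, Usp6nl and Celf2 (6000001 to 7000000). Its all-read ratio was 1.27, with 1.40 for genome1 and 1.0995 for genome2. Genome1 of its neighbours stood at 0.874 and 0.918. KO over WT ChIP gave 1.16 for genome1 in this bin, short of the fold, against 0.819 and 0.884 beside it. Both bins thus had more genome1 reads in KO input on a chromosome whose genome1 was otherwise slightly lower. In ChIP the rise was weaker for the Upf2 bin than for the Fmnl2 bin.

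The third departure was of another kind. The chromosome 14 bin with Nid2 and Gng2 (19000001 to 20000000) had 1070102 reads in WT and 1141861 in KO, of which few were allelic, and an all-read ratio of 1.08 against 0.846 and 0.816 beside it. Its genome1 and genome2 ratios, 0.763 and 1.13, were close to those of its neighbours. The other 5 high bins departed by 0.15 to 0.22; they were on chromosome 7 at 41000001 (Zfp788) and 115000001 (Sox6), chromosome 2 at 98000001, chromosome 8 at 20000001 (Defb33) and chromosome 6 at 69000001.

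The lowest 3 bins were neighbours on chromosome 7, from 20000001 to 23000000, in a cluster of Vmn1r genes, which encode pheromone receptors. Their all-read ratios were 0.711, 0.685 and 0.665, against 0.952 and 0.931 in the bins beside them. Few of their reads were allelic: of 62823 WT reads in the last bin, 609 were assigned to genome1 and 161 to genome2. The allelic ratios of that bin, 0.501 and 1.81, were those of chromosome 7 as a whole, so the low all-read value lay in unassigned reads.

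Secretoglobin genes (Scgb2b and Scgb1b; chromosome 7, 32000001), Sp110, Sp140 and Sp100 (chromosome 1, 85000001) and Zscan4c and Zscan4d (chromosome 7, 11000001) marked the next bins, at 0.801, 0.820 and 0.819. A bin at the end of chromosome 2 had 1417 WT reads only. The last was the chromosome 5 bin of Tbx3 and Tbx5 (119000001 to 120000000), T-box factors of limb and heart development. It stood at 0.930 for all reads and 0.791 for genome1, against 1.12 for genome1 of chromosome 5, and genome2 was 1.06. The bin after it had 0.850 for genome1, and KO over WT ChIP gave 0.769 and 0.773 in the pair.

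Genes were read through the bin that holds their start, and therefore mostly carry their chromosome's value. Imprinted genes are transcribed mainly from 1 parental copy, so their active dose depends on which copies a cell holds. Of 18 imprinted genes in 16 bins, 0 passed the fold for all reads. Genome1 was higher for 4 and lower for 7, beside 30.0% and 21.5% of all bins, and genome2 higher for 8 and lower for 3, beside 27.0% and 24.1%. Of these genes, 5 lie on chromosome 7 and 2 share a bin of chromosome 12. Their median ratios were 0.986, 0.881 and 1.12 for all reads, genome1 and genome2, against 0.994, 0.962 and 1.02 over all autosomal bins.

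Igf2, a fetal growth factor, and H19, a noncoding RNA, share a bin on chromosome 7 (142000001 to 143000000). It stood at 0.504 for genome1 and 1.85 for genome2, and the genome1 share went from 64.2% in WT to 32.8% in KO, with 0.990 over all reads. Peg3, Snrpn and Kcnq1ot1 on the same chromosome had genome1 ratios of 0.508, 0.518 and 0.510 and genome2 ratios of 1.80, 1.61 and 1.77.

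Mest and Peg10 on chromosome 6 were opposite, at 1.63 and 1.66 for genome1 and 0.518 and 0.524 for genome2. Meg3 and Dlk1, neighbours in 1 bin of chromosome 12, had 0.848 and 1.69. Igf2r, the receptor that clears IGF2, had 0.742 and 0.989 on chromosome 17. Which parental copy is maternal is not given, so a dose of the transcribed copy cannot be stated.

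Growth control genes passed the fold about as often as all bins, or less. Of 18 genes, 4 were higher and 5 lower for genome1 (30.0% and 21.5% of all bins), and 4 higher and 2 lower for genome2 (27.0% and 24.1%). Median ratios were 0.921 for genome1 and 1.01 for genome2, and 0 of 18 passed the fold for all reads. Myc, a growth-promoting transcription factor on chromosome 15, had 0.614 for genome1 and 1.251 for genome2.

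Ccnd1, the cyclin of G1 phase on chromosome 7, had 0.496 and 1.75. Rb1, which holds back S-phase entry (chromosome 14), had 0.706 and 1.05. Trp53 on chromosome 11 and Cdkn2a on chromosome 4, both tumour suppressors, passed the fold in neither copy, at 0.923 and 0.956 and at 0.919 and 1.18.

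Among 10 spindle checkpoint genes, genome1 was higher for 2 (Mad2l1 and Ttk) and lower for 1 (Bub3), and genome2 higher for 1 (Bub3) and lower for 1 (Mad2l1). These counts are at or below the shares of all bins just given. Of 7 sirtuins, genome1 was higher for 2 (Sirt1 at 1.37, Sirt6 at 1.42) and lower for 2 (Sirt2 at 0.509, Sirt3 at 0.531). Genome2 was higher for 3 (Sirt2, Sirt3 and Sirt5) and lower for 1 (Sirt7). With so few genes these counts are near the shares of all bins and are no result about sirtuins; Sirt4 on chromosome 5 passed in neither copy (1.12 and 1.01).

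On X, measured over 168 bins for comparison, KO over WT was 0.875 for all reads, 0.784 for genome1 and 0.949 for genome2. The all-read level of X was 1.27 in WT input and 1.06 in KO input. Its genome1 share went from 51.5% to 46.7%, a smaller shift than on most autosomes.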

How the data were processed

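Input and SIRT7 ChIP libraries of WT and SIRT7-KO cells were used (5 libraries, 1 input per genotype). As deposited, the values are counts: whole reads in bins of 1 Mb, for all reads and for each of genome1 and genome2. Per the submitters' processing notes, Trimmomatic 0.36, Bowtie2 2.2.9, SAMtools 0.1.19, FastQC 0.11.3 and mm10 entered the pipeline; the tool that split reads by genome was not given in the sources used here. The authors' table of ratios was not used.

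Each column was divided by its library's all-read autosomal total; copies also needed 100 reads of that genome per bin. Summed KO over WT ratios have exact 95% binomial intervals that cover counting error only. Steps needed 0.2 (log2), 5 bins per side and 8 pooled standard errors, after clipping at the 5th and 95th percentiles. Code was tested on simulated data. Scaling factors came from edgeR 4.0.16 and DESeq2 1.42.0, with R 4.3.3, Python 3.11.15 and pandas 2.3.3; no test was run. Gene positions came from RefSeq (GRCm38.p6, the same build). DNA reads cannot check the labelled cell type by markers.

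Regions, lists and thresholds were chosen with earlier results of these data known. Autosomes were named if among the 4 highest or 4 lowest ratios of a copy or if they held a step, and bins if among the 8 highest or 8 lowest departures with at least 1000 reads. Other folds, scalings, minimums, window widths and steps, and each WT ChIP library left out, were tried as alternatives. Some listed genes are not reported here.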

Additional observations from a re-analysis of the deposited data

Results flagged for a closer look

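The cells are labelled female, yet the inputs held some reads on the Y chromosome, which no comparison used. These were 251015 reads, 0.112% of the total, in WT input and 237257 reads, 0.108%, in KO input. A single Y bin, from 90000001 to 91000000, held 19.6% of the Y reads in WT input and 16.8% in KO input. The median Y bin had 1742.5 and 1670.5 reads, against 76307 and 78950 on autosomes. Where these reads come from was not tested.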

How the results depend on the processing

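Under each of 8 settings (3 other scalings, 2 other read minimums, medians over bins, without bins of extreme read number, and without the chromosome 2 interval and distal chromosome 11, which was added after seeing the data), all 57 autosome ratios stayed on their side of the fold. The largest moves were 5.01% with medians over bins and 2.88% without the 2 regions. Counts depended on the fold chosen. With a fold of 1.1, 10 autosomes, 999 bins and 104 windows passed for all reads, and in ChIP 8 autosomes for all reads and 14 for genome2. With a fold of 1.5, 5 autosomes passed for each copy, 1 bin for all reads, 660 and 720 bins for genome1 and genome2, and 67 and 79 windows. Windows of 5 Mb gave 1 for all reads, 248 for genome1 and 238 for genome2; windows of 20 Mb gave 69 and 65, of fewer windows in all. Steps numbered 5 at a size of 0.1, 0 at 0.4 and 7 with interval splits (added after seeing the data). Of these 7, 4 lay on chromosome 12, where genome2 dipped to 1.33 and 1.35 from 16000001 to 29000000 and from 50000001 to 55000000. All-read ratios were 1.13 to 1.14 in every piece of chromosome 12. In WT input the genome1 share was 29.6% and 31.7% in these dips, against 61.4% to 63.3% in the other pieces. The part of read assignment in these dips was not tested. The median size of the share shift was 10.6 points over bins. Leaving out either WT ChIP library gave 9 and 10 autosomes for genome1 in ChIP, and 9 for genome2 both times. No paired analysis was possible because the groups compared share fewer than 2 replicate numbers. With 1 input per genotype, depth does not limit the autosome ratios; the missing replicate does. KO ChIP shares departed from KO input by more than counting error on every autosome except chromosome 11.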
